A study of Mus musculus with 18 samples.

Results

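The change in gene expression over 18 h of B cell antigen receptor (BCR) stimulation was compared between WEHI-231 cells and mutants of the transcription factor TFEB. The comparison used 12 of the 18 libraries of the series, namely all those of untreated cells (0 h) and of cells exposed for 18 h to F(ab')2 fragments against mouse IgM at 10 µg/ml. WEHI-231 is a mouse B lymphoma line of immature B cell type. The 3 genotypes were the parental line (wild type) and the TFEB mutants #A-59 and #B-20, with 2 libraries for each genotype and time, which came from independent experiments. Both mutants descend from WEHI-231 cells electroporated with Cas9 protein and a crRNA against exon 3 or exon 5 of the mouse Tfeb gene and then cloned by dilution, so that each mutant genotype is 1 clone. Which exon was targeted in which clone is not given in the sources used here, and a clone that went through the same steps with TFEB intact was not analysed here. A difference due to TFEB and one due to the origin of a clone therefore cannot be told apart. For every gene the log2 change from 0 h to 18 h in parental cells was subtracted from that in each clone, and the mean of both differences is called the mean interaction. A positive value says that the change over 18 h was higher in the clones, either as a stronger rise or as a smaller fall.

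TFEB belongs to the MiT/TFE family of basic helix-loop-helix leucine zipper factors, which bind E-box sequences and are best known for driving lysosomal and autophagy genes. Cross-linking of the BCR by anti-IgM starts a kinase cascade that activates, among others, NF-kB, NFAT and the MAP kinase pathways, and in WEHI-231 cells prolonged cross-linking leads to growth arrest and apoptosis. An interaction is thus a statement on how a response differs between genotypes. It equals the difference between genotypes at 18 h minus that at 0 h, so a difference at rest can enter it.

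Tfeb itself was counted in every library. Levels are given as CPM, the counts of a library scaled to a common total after correction for its composition, with the values of the replicate libraries side by side. Parental cells held 79.2 and 82.8 CPM when untreated and 99.7 and 99.9 CPM after 18 h. Clone #A-59 held 25.9 and 25.5 CPM and then 35.4 and 40.5 CPM, and clone #B-20 held 34.2 and 39.1 CPM and then 42.3 and 54.1 CPM. All clone libraries lay below all parental libraries, with a log2 difference of −1.40 at 0 h and −1.22 at 18 h, while the mean interaction of Tfeb was 0.18 with an adjusted p of 0.779 (edgeR's quasi-likelihood test, Benjamini-Hochberg). Reads of an edited transcript still count, so the level of the mRNA does not measure the protein.

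The 12 libraries held between 11223588 and 29655262 counts, the lowest being parental 18 h replicate 1. All 10 B cell markers examined, among them Cd79a and Pax5, were tested, and their summed level was 10460 to 14030 CPM in parental cells and 9489 to 15060 CPM in the clones. Erythroid markers summed to at most 0.868 CPM with Hba-a1, Hba-a2 and Hbb-bs at 0 in all 12 libraries, and fibroblast markers to at most 0.675 CPM with Col3a1 and Dcn at 0. The 5 T cell markers summed to 65.1 to 147 CPM in parental cells and 41.8 to 113 CPM in the clones, led by Lck, and the 5 myeloid markers to 2.03 to 9.01 CPM in parental cells and 3.01 to 27.8 CPM in the clones, led by Itgam, with both highest values in #A-59 at 18 h. The part of this myeloid signal in the interactions was not tested. In bulk RNA, fewer cells that express a gene and less of its RNA per cell cannot be told apart, which holds for all values given here.

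Stimulation changed many genes in each genotype, and fewer of them passed the test in #B-20. A gene was called at a Benjamini-Hochberg FDR under 0.01 and a log2 value above 1 or below −1 in edgeR's quasi-likelihood test. Over 15318 genes tested, 1579 were called between 0 h and 18 h in parental cells (10.3% of the genes tested), 1342 in #A-59 (8.76%) and 735 in #B-20 (4.80%). Of these, 851 of the parental line (5.56%), 639 of #A-59 (4.17%) and 449 of #B-20 (2.93%) were higher at 18 h, and 728 (4.75%), 703 (4.59%) and 286 (1.87%) were lower. Without #B-20 18 h replicate 1 the count of #B-20 was 401, and without #B-20 18 h replicate 2 it was 1018. To compare sizes without choosing the genes on 1 genotype, the 1483 genes called on the average of the 3 genotypes (9.68%) were used, of which 848 rose and 635 fell. On the log2 scale the median rise was 1.43 (parental), 1.27 (#A-59) and 1.20 (#B-20), and the median fall was −1.42, −1.36 and −1.01. Of the 635 genes that fell on average, 547 (86.1%) changed less in #B-20 than in parental cells and 358 (56.4%) changed less in #A-59. Among the 848 that rose these counts were 555 (65.4%) for #B-20 and 524 (61.8%) for #A-59. Almost every one of these genes moved in the same direction in each genotype, for example 844 of 848 rising and 634 of 635 falling genes in #B-20. Genes are no replicates, and these shares carry no test.

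**Figure D1:**
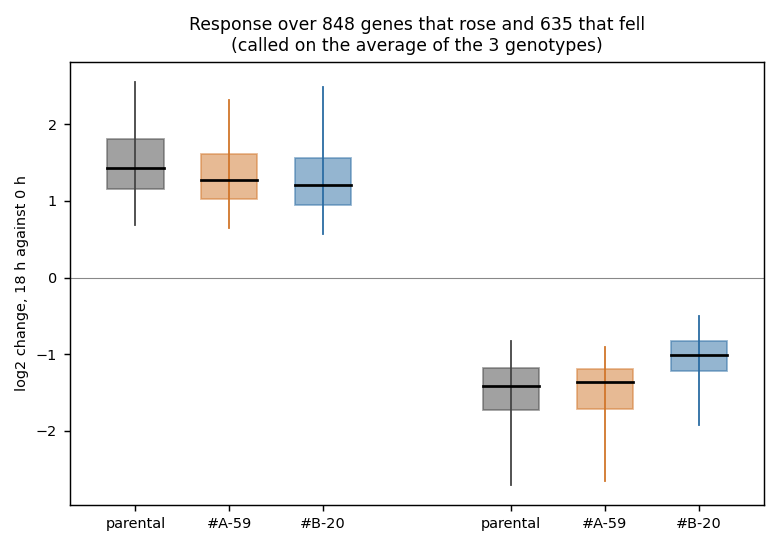
Log2 change from 0 h to 18 h in parental cells, #A-59 and #B-20 (x axis) over the 848 genes that rose and the 635 that fell on the average of the 3 genotypes, shown as median and quartiles. The median fall was −1.42 for the parental line, −1.36 for #A-59 and −1.01 for #B-20, whereas the medians of the rising genes lay closer together at 1.43, 1.27 and 1.20.

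Few genes passed the test for an altered response. The mean interaction was called for 12 of 15318 genes (0.0783%), with 8 higher (0.0522%) and 4 lower (0.0261%) in the clones, and all 12 had the same sign in both clones, which a choice on the mean of both favours. Higher were Shank1, Gm29695, Rnf157, Nab2, Pigz, Il21r, Slc19a1 and Carmil3, and lower were Lztfl1, Camkk1, Gm36043 and Cd300a. At an FDR under 0.05 without a limit on the size there were 64 genes (0.418%), 31 higher and 33 lower, and 1340 genes had an unadjusted p under 0.05. The median of the mean interaction over all genes was −0.0115, with 47.8% of genes above 0. In 10 of the 12 called genes the change was smaller in size in both clones than in parental cells, and in 2 (Shank1 and Nab2) it was larger. Over all genes tested, 37.8% changed less and 25.4% changed more in both clones. The 12 were chosen on the difference from parental libraries that both clones share, which can favour a smaller change in the clones. The count of 12 depended on single libraries, with 3 genes called without parental 18 h replicate 2, 5 without parental 0 h replicate 2 or #B-20 0 h replicate 1, and 6 without parental 0 h replicate 1, #A-59 0 h replicate 2 or #A-59 18 h replicate 1. Shank1, Lztfl1 and Rnf157 were called in each of these fits.

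**Figure D2:**
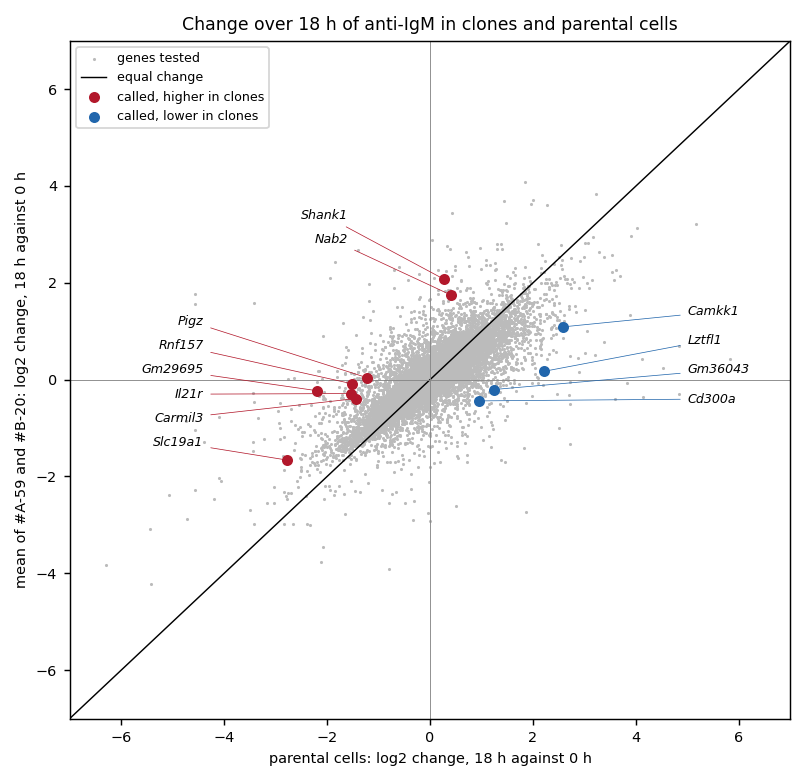
Log2 change from 0 h to 18 h in parental cells (x axis) against the mean of #A-59 and #B-20 (y axis), 1 point per gene tested, with the 12 genes of a called mean interaction marked. Most marked genes lie closer to 0 on the y axis than on the x axis, for example Lztfl1 with a parental rise of 2.21. Shank1 and Nab2 rose more in the clones between 0 h and 18 h.

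Among the genes with a lower response in the clones, Lztfl1 had the largest interaction. It encodes a leucine zipper protein that controls the traffic of the BBSome to cilia, and it lies on chromosome 9 (chr9:123694404-123717625, GRCm38, RefSeq annotation). Parental cells went from 26.9 and 23.8 CPM to 118 and 116 CPM, #A-59 from 11.4 and 15.6 to 18.1 and 20.7 CPM, and #B-20 from 14.8 and 15.8 to 11.9 and 14.8 CPM. Only the parental 18 h libraries were high, and the #B-20 libraries of both times overlapped. The parental log2 change was 2.21, that of #A-59 0.54 and that of #B-20 −0.19, which gave a mean interaction of −2.04 (SE 0.191, adjusted p = 2.51e-05, edgeR), −1.67 for #A-59 and −2.40 for #B-20. At 0 h the clones were already lower by −0.83, and at 18 h the difference was −2.87.

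The promoter of Lztfl1 is shown because it was the only one among those of the 12 genes that held the E-box core CACGTG, the letters bound by MiT/TFE factors and by other factors of their class. The sequence is the RefSeq promoter (GRCm38.p6, minus strand, chr9:123717626-123717875), that is the 250 bases before the start site, written 5′ to 3′ with the palindrome TCACGTGA in capitals. This palindrome, the centre of the motif known from lysosomal genes, begins 48 bases before the start site.
Lztfl1: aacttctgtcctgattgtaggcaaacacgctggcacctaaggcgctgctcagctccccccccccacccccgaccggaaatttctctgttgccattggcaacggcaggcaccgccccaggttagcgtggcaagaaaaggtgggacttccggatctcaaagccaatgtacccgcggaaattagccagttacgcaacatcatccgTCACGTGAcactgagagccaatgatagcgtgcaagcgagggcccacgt
Promoter windows of 300 bases, 250 before and 50 after the start site, were held for 11 of the 12 called genes, and Shank1 had none. Counted per gene over all of its windows and on either strand, CACGTG occurred in 1 of the 11 and in 8.09% of all 27025 genes that have a window (7.15% of the 32851 single windows), and TCACGTGA, which contains CACGTG, in the same 1 and in 1.12% of all genes. The AP-1 motif TGACTCA (with its reverse complement) occurred in 1 of the 11, Gm36043, and in 5.95% of all genes, the kappaB motif GGGNNTTCC in 1, again Lztfl1, and in 6.58%, and the Egr motif GCGTGGGCG in 0 and in 0.71%. A match of letters is a description and not a binding site.

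Camkk1, Gm36043 and Cd300a were the other genes with a lower response in both clones. Camkk1 encodes a kinase that activates calcium/calmodulin-dependent kinases. It rose in parental cells from 1.77 and 2.11 CPM to 12.7 and 10.6 CPM. In #A-59 the values went from 4.40 and 3.47 to 8.12 and 10.0 CPM and in #B-20 from 3.08 and 3.22 to 5.97 and 6.6 CPM. Both clones thus started higher and ended lower than parental cells, and Camkk1 rose in all 3 genotypes (log2 2.58, 1.19 and 0.99). The mean interaction was −1.49 (SE 0.228, adjusted p = 0.00492, edgeR), −1.39 for #A-59 and −1.58 for #B-20. It passed the threshold in all fits but those without 1 of 8 libraries, where its adjusted p reached 0.0685.

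Gm36043, a long non-coding RNA in the RefSeq annotation, lies within the span of Cd274, which encodes the checkpoint ligand PD-L1 (chr19:29378749-29384951 inside chr19:29362107-29388095). Parental cells went from 13.1 and 14.7 CPM to 32.0 and 33.9 CPM, whereas #A-59 stayed between 3.88 and 5.05 CPM and #B-20 between 6.38 and 7.44 CPM. Only the parental line rose, by 1.24 on the log2 scale, and the mean interaction was −1.45 (SE 0.175, adjusted p = 0.000527, edgeR), −1.49 for #A-59 and −1.41 for #B-20. Cd274 rose by 1.41 in parental cells, from 9.37 and 12.3 CPM to 30.2 and 27.5 CPM, and had log2 changes of 0.15 in #A-59 and 0.13 in #B-20, with a mean interaction of −1.28 at an adjusted p of 0.0396. The libraries do not mark the strand, so reads of Gm36043 and Cd274 cannot be told apart where they overlap. The call of Gm36043 was lost without parental 0 h replicate 1 (−1.36, adjusted p = 0.0102) and without parental 18 h replicate 2 (−1.41, adjusted p = 0.0118).

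Cd300a encodes an inhibitory receptor with tyrosine motifs in its cytoplasmic tail. In parental cells its values were 3.87 and 3.85 CPM and then, after 18 h, 6.07 and 8.61 CPM. In #A-59 they were 5.89 and 6.01 CPM and then 4.09 and 3.74 CPM, and in #B-20 20.1 and 20.03 CPM and then 17.6 and 15.5 CPM. The level rose in the parental line and was lower at 18 h than at 0 h in each clone, and the mean interaction was −1.39 (SE 0.214, adjusted p = 0.00492, edgeR), −1.56 for #A-59 and −1.23 for #B-20. #B-20 lay above parental cells at both times. Cd300a was called in the mean but in neither clone alone, and 10 of the 12 fits without 1 library lost the call, with an adjusted p of up to 0.138.

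In 6 of the 8 genes with a positive interaction, parental cells lowered the gene and the clones lowered it less or not at all. Rnf157, which encodes a RING-type ubiquitin ligase, fell in parental cells from 49.98 and 57.5 CPM to 18.0 and 19.6 CPM. The values in #A-59 were 72.4 and 60.1 CPM and then 55.6 and 49.0 CPM, and in #B-20 36.7 and 37.5 CPM and then 42.7 and 40.6 CPM. At 0 h parental cells lay between both clones, and at 18 h every clone library was above both parental ones. This made a mean interaction of 1.42 (SE 0.147, adjusted p = 6.86e-05, edgeR), with 1.17 for #A-59 and 1.68 for #B-20.

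Gm29695, a long non-coding RNA whose span overlaps Lemd1, went from 5.50 and 4.97 CPM to 1.61 and 0.83 CPM in parental cells. Both clones held it between 10.3 and 14.9 CPM at both times. Its mean interaction was 1.98 (SE 0.278, adjusted p = 0.00307, edgeR), 2.02 for #A-59 and 1.94 for #B-20, and that of Lemd1 was 0.34 at an adjusted p of 0.877. The value of Gm29695 rests on 16 and 18 reads in the parental 18 h libraries, and its call was lost without parental 18 h replicate 2 (1.47, adjusted p = 0.129), parental 0 h replicate 1 (1.91, adjusted p = 0.0239) or parental 0 h replicate 2 (2.05, adjusted p = 0.0116).

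Il21r encodes the receptor of interleukin-21, a cytokine of follicular helper T cells. Parental cells went from 104 and 132 CPM to 47.3 and 35.3 CPM. In #A-59 the levels were 65.8 and 69.6 CPM and then 53.4 and 49.3 CPM, and in #B-20 68.3 and 94.0 CPM and then 66.1 and 77.5 CPM. Parental cells were highest at 0 h and lowest at 18 h, with no overlap with the clones at either time. The mean interaction was 1.24 (SE 0.190, adjusted p = 0.00561, edgeR), with 1.13 for #A-59 and 1.35 for #B-20. The call was lost with only the libraries of 0 h and 18 h in the fit (adjusted p = 0.0394) and in 7 of the 12 fits without 1 library (adjusted p up to 0.0920).

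Slc19a1 encodes the reduced folate carrier. It fell in every genotype, from 45.2 and 50.2 CPM to 7.94 and 6.22 CPM in parental cells, from 36.9 and 37.4 to 8.59 and 9.41 CPM in #A-59 and from 40.2 and 42.4 to 14.7 and 19.4 CPM in #B-20. The fall was −2.78, −2.05 and −1.28 on the log2 scale, and the mean interaction was 1.12 (SE 0.182, adjusted p = 0.00744, edgeR), of which #B-20 gave 1.5 and #A-59 gave 0.73 with an adjusted p of 0.298 of its own. In 11 of 12 fits without 1 library it was no longer called, with adjusted p up to 0.192.

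Carmil3, a member of the family that regulates actin capping protein, fell in parental cells from 31.6 and 30.7 CPM to 11.6 and 11.4 CPM. In #A-59 it went from 40.1 and 35.2 to 25.6 and 24.8 CPM and in #B-20 from 26.7 and 28.9 to 23.3 and 25.1 CPM, so that the 18 h libraries of both clones lay above the parental ones. That gave a mean interaction of 1.05 (SE 0.155, adjusted p = 0.00463, edgeR), 0.86 for #A-59 and 1.24 for #B-20, just above the limit of 1. Adjustment for GC content took it below that limit, and 7 of the 12 fits without 1 library took its adjusted p to at most 0.0735.

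Pigz encodes a mannosyltransferase of GPI anchor synthesis. It went from 12.98 and 14.4 CPM to 6.16 and 5.65 CPM in parental cells, and it stayed between 4.66 and 5.85 CPM in #A-59 and between 2.08 and 2.73 CPM in #B-20. The parental fall brought it close to the level that #A-59 had at both times. Its mean interaction was 1.26 (SE 0.210, adjusted p = 0.00776, edgeR), 1.18 for #A-59 and 1.33 for #B-20. It was called in neither clone alone, not with only the libraries of 0 h and 18 h, and in 1 of the 12 fits without 1 library, where its adjusted p reached 0.129.

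Shank1 and Nab2 were the opposite case, low in the untreated clones and brought towards the parental level by stimulation. Shank1 encodes a scaffold protein known from the postsynaptic density (chr7:44308916-44360094). Parental cells had 122 and 145 CPM before and 173 and 151 CPM after stimulation. #A-59 went from 27.5 and 24.5 CPM to 101 and 96.2 CPM, and #B-20 from 16.7 and 17.7 CPM to 79.3 and 81.0 CPM. The clones rose by 1.92 and 2.22 on the log2 scale against 0.28 in parental cells, yet stayed below every parental library at 18 h. The mean interaction was 1.80 (SE 0.132, adjusted p = 8.98e-07, edgeR), 1.65 for #A-59 and 1.95 for #B-20, and the difference between clones and parental cells went from −2.66 at 0 h to −0.86 at 18 h. Shank1 had the lowest p of all genes tested in the mean and in each clone.

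Nab2, which encodes a corepressor of the EGR factors and is itself an early target of them, was 15.6 and 21.1 CPM and then 21.3 and 26.6 CPM in parental cells. It rose from 6.98 and 6.06 CPM to 16.8 and 21.9 CPM in #A-59 and from 5.36 and 5.58 CPM to 19.1 and 23.1 CPM in #B-20. The groups were apart at 0 h and overlapped at 18 h. Its mean interaction was 1.35 (SE 0.203, adjusted p = 0.00489, edgeR), 1.16 for #A-59 and 1.55 for #B-20. The call was lost without parental 18 h replicate 1 (1.22, adjusted p = 0.0347), parental 18 h replicate 2 (1.53, 0.0183), parental 0 h replicate 2 (1.13, 0.0557), #B-20 0 h replicate 1 (1.34, 0.012) or #A-59 0 h replicate 2 (1.31, 0.0121). Nab2 overlaps Stat6, whose mean interaction was 0.30 at an adjusted p of 0.273.

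**Figure D3:**
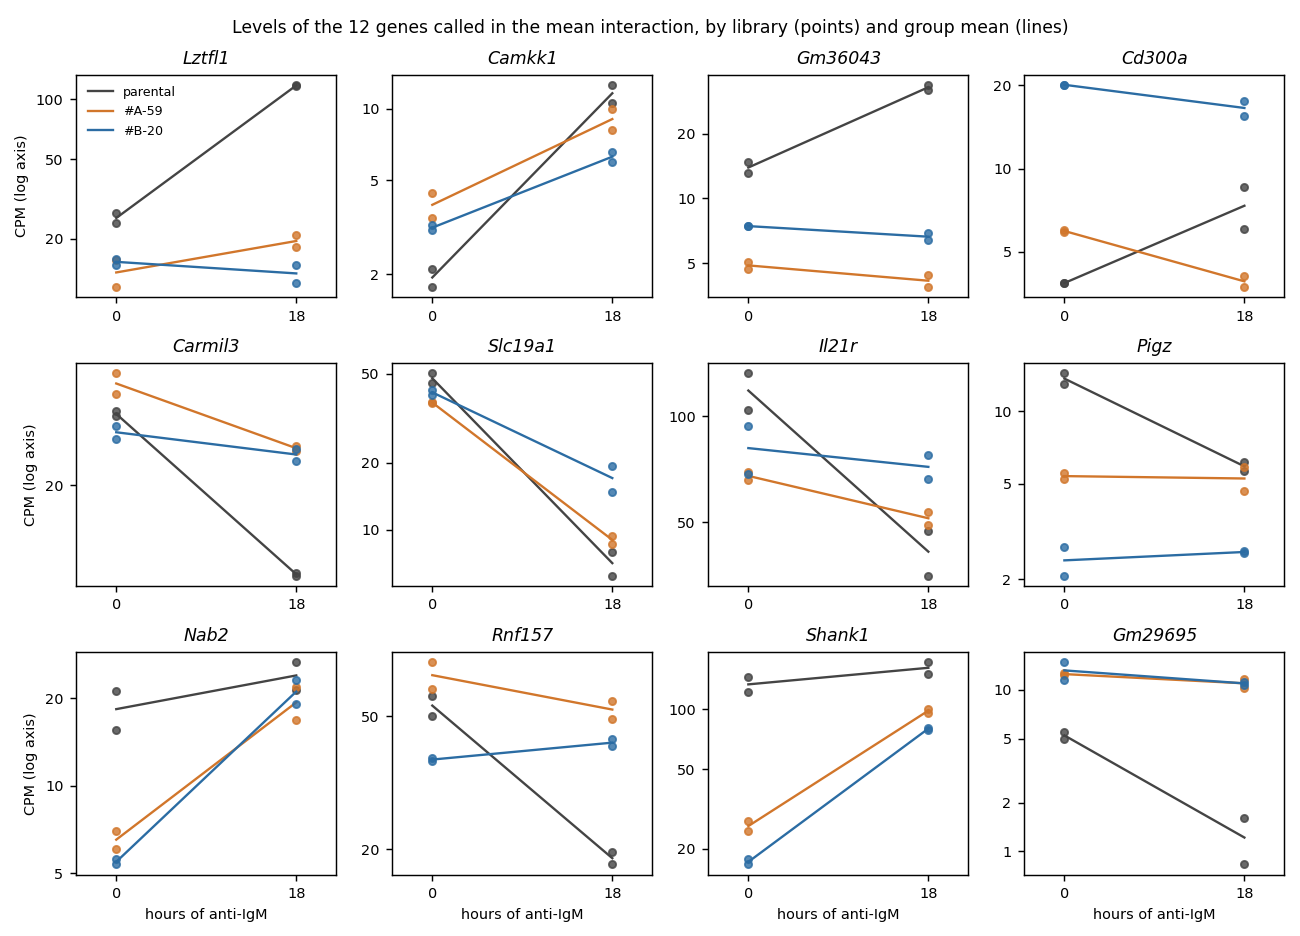
Levels of the 12 genes in CPM (log axis) against hours of anti-IgM, with 1 point per library and lines through the means of 2 libraries for parental cells, #A-59 and #B-20. The parental line is the steep one for Lztfl1 (from 26.9 and 23.8 CPM to 118 and 116 CPM), and the clone lines are the steep ones for Shank1 and Nab2.

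The same 12 genes differed in when the genotypes stood apart. Clones and parental cells differed past the threshold at 0 h for 6 of the 12 (against 4.73% of all genes) and at 18 h for 5 (against 5.00%). The interaction is the difference at 18 h minus that at 0 h, so the choice of genes on it favours large differences at either time. The distance grew over time for 6 genes and shrank for 6. Gm36043 and Gm29695 were past the threshold at both times, with differences of −1.21 and 1.297 at 0 h and −2.65 and 3.28 at 18 h. Pigz was lower in the clones by −1.92 at 0 h and by −0.67 at 18 h. The interaction at 6 h, which shares the 0 h libraries, was called for 39 genes (0.255%), among them Shank1 (1.04, adjusted p = 0.000316, edgeR) and Lztfl1 (−1.99, adjusted p = 3.98e-05, edgeR). Lztfl1 in parental cells had already reached 91.8 and 98.1 CPM at 6 h. Shank1 and Nab2 also stood higher in parental cells at 6 h than at 0 h. In reads not scaled for library totals, Shank1 went from 3385 and 3497 to 5590 and 5833. Nab2 went from 431 and 510 to 849 and 1031. The 6 h value had the same sign as the 18 h value for 9 of the 12 genes, and Rnf157 stood at 0.37 at 6 h against 1.42 at 18 h.

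More genes were called in #B-20 than in #A-59. Clone #A-59 alone gave 5 called genes (0.0326%) and #B-20 gave 25 (0.163%), and the 5 of #A-59 were called in #B-20 in the same direction (0.0326%). They were Shank1, Rnf157 and Gm29695 with a positive and Lztfl1 and Gm36043 with a negative interaction. Taken over the mean and both clones, 27 genes were called, and the interactions of both clones had the same sign for each of them. The size was larger in #B-20 for 9 of the 12 genes of the mean and for 59.1% of all genes. Both clones were compared with the same 4 parental libraries, so the signs are not independent. The counts were unstable against single libraries. The 25 genes of #B-20 became 5 without parental 0 h replicate 2, 6 without parental 18 h replicate 2 or #B-20 0 h replicate 1, 8 without parental 0 h replicate 1, 10 without parental 18 h replicate 1 or #B-20 0 h replicate 2, and 15 without #B-20 18 h replicate 2. In #A-59 the 5 genes became 1 in the fits without any 1 of the parental 0 h libraries, parental 18 h replicate 2, either 18 h library or the second 0 h library of #A-59, or #B-20 0 h replicate 1, 2 without parental 18 h replicate 1 and 3 without #A-59 0 h replicate 1. Genes called in both clones were as many as in #A-59 in each of these fits, and 3 without either #B-20 library of replicate 2.

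A further 15 genes were called in #B-20 and not in the mean. The 5 with the largest interaction were Kcng1, 1600012P17Rik, Reps2, Map3k12 and Kif26a. Map3k12 encodes a MAP kinase kinase kinase known for stress signalling in neurons. It went from 4.63 and 4.92 CPM to 16.7 and 17.7 CPM in parental cells, from 4.54 and 4.40 to 13.7 and 10.9 CPM in #A-59 and from 4.55 and 4.59 to 6.36 and 5.75 CPM in #B-20. All 6 libraries of 0 h lay between 4.40 and 4.92 CPM, and at 18 h #B-20 was lower than the other two genotypes, with an interaction of −1.45 (adjusted p = 0.0046, edgeR) against −0.39 in #A-59.

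Kcng1, a modifier subunit of potassium channels, was near the detection limit in parental cells at 0 h, with 0.398 and 0.786 CPM, and had 1.70 and 2.28 CPM at 18 h, while #B-20 held 24.95 to 36.5 CPM at both times (interaction −2.08, adjusted p = 0.00712, edgeR). Reps2, an EH domain protein of endocytosis, went in parental cells from 3.94 and 5.50 CPM to 23.9 and 25.6 CPM and in #B-20 from 2.95 and 2.11 CPM to 3.48 and 3.66 CPM (−1.89, adjusted p = 0.00889, edgeR). The non-coding RNA 1600012P17Rik went from 54.5 and 51.9 CPM to 9.81 and 7.62 CPM in parental cells and from 15.5 and 10.0 CPM to 9.10 and 6.16 CPM in #B-20 (1.90, adjusted p = 0.00712, edgeR). Kif26a, a kinesin-like protein, went from 53.7 and 60.5 CPM to 13.3 and 15.6 CPM in parental cells and from 8.90 and 7.94 CPM to 5.94 and 5.15 CPM in #B-20 (1.37, adjusted p = 0.00793, edgeR). For Reps2, 1600012P17Rik and Kif26a the level of #B-20 was below that of the parental line already at 0 h.

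The other 10 genes of #B-20 were chosen after their values were seen, except for Nfkbia. Slamf6 (−1.31), a receptor of the SLAM family, Il6ra (−1.3), the receptor chain for interleukin-6, and Fcmr (1.25), the Fc receptor for IgM, all rose in parental cells, by 2.32, 0.82 and 0.76 on the log2 scale. Il6ra had −0.48 in #B-20, and Fcmr rose by 2.01 there. The others were Cnnm1 (1.21), Clic5 (−1.06), Sgsm3 (1.05), E330020D12Rik (−1.05), Bcl7a (−1.04) and Plac8 (−1.04). The mean interactions of these were 0.73, −0.96, 0.59, −0.95, −0.91 and −0.86 in this order. Those of Slamf6, Il6ra and Fcmr were −0.99, −0.93 and 0.79. The values of Cnnm1 and Sgsm3 thus rested mainly on #B-20. Plac8 was strongly induced in every genotype, with log2 changes of 3.38, 2.70 and 2.35.

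Promoters of these genes are shown where they held CACGTG, again in capitals and from RefSeq (GRCm38.p6). Map3k12 held the palindrome TCACGTGA, 137 bases before an internal start site that lies 6304 bases inside the span of the gene (chr15:102510701-102510950, minus strand). Il6ra (chr3:89913203-89913232, minus strand) and Cnnm1 (chr19:43440325-43440354, plus strand) held the core, shown here in windows of 30 bases, and the start site of the Cnnm1 window lies 1344 bases inside that gene.
Map3k12: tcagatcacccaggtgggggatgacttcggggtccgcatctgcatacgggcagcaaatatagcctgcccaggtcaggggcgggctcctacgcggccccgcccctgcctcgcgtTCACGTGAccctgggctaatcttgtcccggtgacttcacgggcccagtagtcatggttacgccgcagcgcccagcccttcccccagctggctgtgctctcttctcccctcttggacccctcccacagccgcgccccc
Il6ra: gctgctgtgtgtCACGTGcatgtgggaagt
Cnnm1: gcaaggggagcaCACGTGgtgacctgcctg
With the 12 genes above, 24 of the 27 called genes had a promoter window, of which 4 held CACGTG in any window (against 8.09% of all genes), 2 TCACGTGA (1.12%), 1 TGACTCA (5.95%), 2 GGGNNTTCC (6.58%, Lztfl1 and Plac8) and 0 GCGTGGGCG (0.71%).

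**Figure D4:**
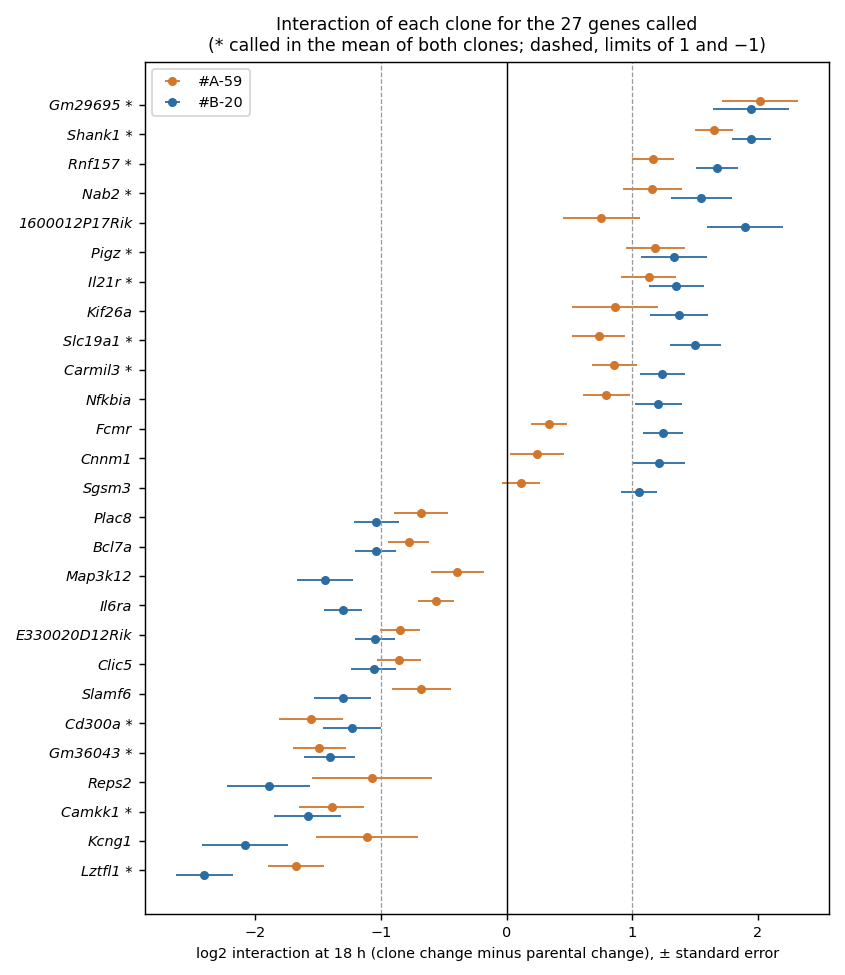
Log2 interaction at 18 h (x axis) of #A-59 and #B-20 with standard errors for the 27 genes called in the mean or in 1 clone, an asterisk marking the 12 called in the mean. The points of both clones lie on the same side of 0 for all 27 genes, and for Map3k12 that of #A-59 (−0.39) lies far from that of #B-20 (−1.45).

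Genes of NF-kB and its inhibitors had mostly positive interactions. Of 17 members tested, 14 were positive with a median of 0.33 (against 47.8% of all genes at a median of −0.0115), and 2 reached an FDR under 0.05 (against 0.418% of all genes). These were Nfkbia and Nfkbid, both of which encode proteins that bind and regulate NF-kB and are themselves induced by it. The count of 2 became 0 without parental 0 h replicate 2 or parental 18 h replicate 2, 1 without parental 0 h replicate 1, #A-59 18 h replicate 1, #A-59 0 h replicate 2 or #B-20 0 h replicate 1, and 3 without #B-20 0 h replicate 2 or the first 18 h library of parental cells or #B-20. It was 5 with DESeq2, where 143 of all genes passed against 64 in this fit. Nfkbia fell in parental cells from 235 and 242 CPM to 82.2 and 67.8 CPM. The levels were 279 and 245 CPM and then 156 and 128 CPM in #A-59, and 230 and 260 CPM and then 193 and 161 CPM in #B-20. The genotypes overlapped at 0 h and stood apart at 18 h in the order parental, #A-59, #B-20. Its mean interaction was 0.999 with an adjusted p of 0.00744 (edgeR), just under the limit for a call, with 0.79 for #A-59 and 1.21 for #B-20 (adjusted p = 0.005). Nfkbid had log2 changes of −2.23 (parental), −1.6 (#A-59) and −1.34 (#B-20), with a mean interaction of 0.76 (adjusted p = 0.0262, edgeR). Irf4, a NF-kB target that drives plasma cell differentiation, had 0.60 at an adjusted p of 0.0521 (0.0176 with adjustment for GC content).

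Of the 64 genes at an FDR under 0.05 in the mean, 54 changed less in both clones than in parental cells. Of these, 27 rose and 27 fell in the parental line. In 9 of the 64 both clones changed more. The 64 were chosen on the difference from the shared parental libraries, which can favour a smaller change in the clones. The following were chosen after their values were seen. Il12a, a subunit of interleukin-12, had log2 changes of −3.44 (parental), −1.80 (#A-59) and −1.17 (#B-20, mean interaction 1.96, adjusted p = 0.0417, edgeR), which rests on 4 and 7 reads in the parental 18 h libraries. Cx3cl1, a chemokine, went from 320 and 356 CPM to 68.3 and 58.1 CPM in parental cells and ended at 92.3 to 110 CPM in the clones (0.86, adjusted p = 0.00744, edgeR). The transcription factor gene Maff fell in the parental line and had small positive changes in both clones, with log2 values of −1.23, 0.22 and 0.34 (1.51, adjusted p = 0.0368, edgeR). On the lower side were, among others, Lsp1 (−0.49), Tmsb4x (−0.52), S100a10 (−0.59), Ceacam1 (−0.66) and Slamf7 (−0.81). The count of 64 became 12 without parental 0 h replicate 2 or without parental 18 h replicate 2 and 23 without parental 0 h replicate 1. It was 28 to 39 without parental 18 h replicate 1, #A-59 0 h replicate 2, either #A-59 library of 18 h or either #B-20 library of 0 h, while it was 116 with adjustment for GC content, 214 without a filter on low counts and 143 in DESeq2.

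The clones were also compared with each other, which uses no parental library. The difference between their changes over 18 h (#B-20 minus #A-59) was called for 5 genes (0.0326%) and had an FDR under 0.05 for 70 (0.457%), of which 61 were higher in #B-20. Apoe, the lipid carrier apolipoprotein E, rose in #A-59 from 56.1 and 59.4 CPM to 142 and 144 CPM and was 28.3 and 29.5 CPM before and 25.8 and 30.3 CPM after stimulation in #B-20 (difference −1.35, adjusted p = 0.00115, edgeR). In parental cells it went from 34.3 and 38.8 CPM to 63.4 and 74.1 CPM, so that only #B-20 did not rise.

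Asns and Aldh18a1, enzymes of asparagine and proline synthesis, fell in every genotype, and most in #A-59. Asns went from 98.3 and 84.3 CPM to 28.7 and 33.5 CPM in parental cells, from 111 and 113 CPM to 21.7 and 24.4 CPM in #A-59 and from 126 and 124 CPM to 54.6 and 53.6 CPM in #B-20 (difference 1.08, adjusted p = 0.00153, edgeR). It was lost without #A-59 18 h replicate 1 (0.99, adjusted p = 0.0307) and without #B-20 0 h replicate 2 (1.07, adjusted p = 0.013). Aldh18a1 fell by −1.58, −2.11 and −1.10 (difference 1.02, adjusted p = 0.00271, edgeR), and its promoter held CACGTG, 59 bases before the start site (chr19:40588505-40588534, minus strand).
Aldh18a1: ggagggggccgcCACGTGgagcgtgggcgc
Ikbke, a kinase of the IKK family, was 14.8 and 13.1 CPM and then 3.09 and 3.38 CPM in #A-59 against 14.7 and 18.4 CPM and then 12.94 and 12.95 CPM in #B-20 (difference 1.76, adjusted p = 0.00247, edgeR). The pseudogene Rps13-ps2 had 2.40 (adjusted p = 0.00282, edgeR), which is uncertain because its reads may come from the parent gene. Without 1 library, Aldh18a1 lost its call in 5 fits, Ikbke in 4 and Rps13-ps2 in 6, with adjusted p up to 0.0343, while Apoe was called in all 12. Aldh18a1 also fell below the limit of 1 with adjustment for GC content (0.92) and in DESeq2 with betaPrior (0.98). The count of 5 became 1 without #A-59 18 h replicate 1, 2 without #A-59 0 h replicate 1 or #B-20 0 h replicate 2, 3 without #A-59 18 h replicate 2 or #B-20 0 h replicate 1, 8 without #B-20 18 h replicate 1 and 10 without #B-20 18 h replicate 2. The count of 70 became 9 without replicate 1 of #A-59 at either time, 18 without either #B-20 library of 0 h, 37 without #A-59 18 h replicate 2 and 32 without #B-20 18 h replicate 2.

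Genes of DNA replication moved in the same way in this comparison. The change of all 39 members tested was higher in #B-20 than in #A-59, with a median difference of 0.55, whereas 55.2% of all genes were higher at a median of 0.0429. Their median change over 18 h was −0.53 (parental), −0.80 (#A-59) and −0.19 (#B-20), so that the mean of both clones (0.0782) hid opposite values of −0.22 and 0.33. An FDR under 0.05 was reached by 9 of the 39 (against 0.457% of all genes). They were Cdc6, which loads the replicative helicase, Mcm3, Mcm6 and Mcm7, which are helicase subunits, Mcm10, Cdc45, the chromatin assembly genes Chaf1a and Chaf1b, and Uhrf1, which were chosen after their values were seen except for Chaf1b. Cdc6 went from 70.8 and 62.7 CPM to 27.4 and 27.3 CPM in #A-59 and from 73.8 and 60.2 CPM to 55.8 and 55.4 CPM in #B-20, with 77.5 and 62.4 CPM and then 39.3 and 33.7 CPM in parental cells (difference 1.02, adjusted p = 0.0151, edgeR). The count of 9 became 0 without #A-59 0 h replicate 1, #A-59 18 h replicate 1 or #B-20 0 h replicate 2, 1 without #B-20 18 h replicate 2, 2 without #A-59 18 h replicate 2, 3 without #B-20 0 h replicate 1 and 6 without #B-20 18 h replicate 1. All 39 differences stayed positive in every alternative fit. With adjustment for GC content the count was 17, where 158 of all genes passed. DESeq2 gave 20, where 205 of all genes passed against 70 in this fit.

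The change of mitotic genes was higher in #B-20 than in #A-59 for 31 of 33, and that of ribosome biogenesis genes for 32 of 35. Their median differences were 0.25 and 0.24. Without 1 library these medians ranged from 0.17 to 0.33 and from −0.0058 to 0.49. Of the ATF4 and ER stress genes, which serve amino acid supply and protein folding, 30 of 35 were higher in #B-20 (against 55.2% of all genes). Their median difference was 0.37, and 8 of the 35 had an FDR under 0.05 (against 0.457% of all genes). These were Asns and Aldh18a1 and, chosen after their values were seen, Shmt2, Psph and Psat1 of serine metabolism, the amino acid transporter gene Slc7a5, Atf5 and Chac1. Chac1, which encodes an enzyme of glutathione breakdown, had log2 changes of −2.66 (parental), −4.15 (#A-59) and −1.79 (#B-20). Between 0 h and 18 h, 9 of the 35 were called lower in the parental line (against 4.75% of all tested), 17 in #A-59 (4.59%), and 6 in #B-20 (1.87%). The count of 8 fell to 3 without either library of replicate 1 of #A-59 or without #B-20 0 h replicate 1, and to 5 without either #B-20 library of replicate 2. The differences between the clones correlated across genes with GC content (Spearman's rho 0.338), as did the interaction of #B-20 (0.286) and less that of #A-59 (−0.064). With adjustment for GC content, 8 of the ATF4 and ER stress genes had an FDR under 0.05 between the clones, as without it. Over all genes the adjustment took the 5 genes called between the clones to 6, the 70 at an FDR under 0.05 to 158 and the 25 called in #B-20 to 24.

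The remaining lists are given by the number of members tested, the number with a positive mean interaction and the median, to be read beside 47.8% and −0.0115 over all genes. Glycolytic and hypoxia-linked genes, which BCR signals drive in activated B cells, were positive for 27 of 30. Their median was 0.56 (0.43 in #A-59 and 0.78 in #B-20). Of the 30, 5 had an unadjusted p under 0.05 in edgeR, against 1340 of all 15318 genes. An FDR under 0.05 was reached by 0 of the 30 in this fit and in DESeq2. EdgeR without a filter on low counts gave 3, where 214 of all genes passed. Without #B-20 18 h replicate 1 the median was 0.35. Lactate dehydrogenase, Ldha, went from 2251 and 2204 CPM to 895 and 961 CPM in parental cells, from 2423 and 2106 to 1391 and 1007 CPM in #A-59 and from 2085 and 1800 to 1693 and 1167 CPM in #B-20, with a mean interaction of 0.58 at an adjusted p of 0.328. Its 18 h replicates differed by more than the parental ones in both clones. Pfkfb4 had −0.39 at an adjusted p of 0.247.

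Many ribosome biogenesis genes fell in all genotypes, with 26 of 35 called lower in the parental line (against 4.75% of all tested), 24 in #A-59 (4.59%), 20 in #B-20 (1.87%), and 31 of the 35 had a positive mean interaction (median 0.28). Polr1a, the large subunit of RNA polymerase I, had 0.41 and Mybbp1a 0.40, with adjusted p of 0.116 and 0.271. Immediate early and BCR feedback genes were positive for 21 of 29 (median 0.27), led by Nab2 and by Rgs2 with −0.94 at an adjusted p of 0.150. B cell activation and costimulatory genes were positive for 20 of 33 (median 0.30), and 4 reached an FDR under 0.05 (against 0.418% of all genes). These were Il21r and Cd274, described above, and Cd44 with 0.55 and Slamf7 with −0.81. Over all genes, 64 passed this FDR in this fit and 143 in DESeq2. The count of 4 became 0 without parental 0 h replicate 2 or parental 18 h replicate 2, 1 or 2 without 8 of the other libraries and 3 without #B-20 18 h replicate 1 or #B-20 0 h replicate 2, and DESeq2 gave 7.

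Several lists were mostly negative. Interferon-stimulated genes were positive for 7 of 34 (median −0.27), with −1.21 for Oasl1 and −0.33 for Stat2. Cholesterol and fatty acid synthesis genes were positive for 6 of 30 (−0.18), with −0.24 for Scd2 and −0.40 for Mvk. PI3K and FoxO-linked genes were positive for 7 of 31 (−0.12), with −0.50 for Pik3r1 and −0.67 for Klf3. Oxidative phosphorylation genes were positive for 11 of 47 (−0.10), with −0.45 for Ndufa4 and −0.35 for Ndufs4. Without 1 library the median of the interferon genes ranged from −0.43 to −0.0029. The members named in this paragraph had an FDR above 0.05 in this fit, and Pik3r1 was below it with adjustment for GC content (0.0452). With the replicate number as a block, Klf3 (0.0148), Oasl1 (0.025) and Pik3r1 (0.026) were below 0.05.

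The genes classically assigned to TFEB showed small interactions. Lysosomal genes were positive for 13 of 45 with a median of −0.0989, led by the sialidase Neu1 (0.34, adjusted p = 0.276) and the acid lipase Lipa (−0.36, adjusted p = 0.305). Autophagy genes were positive for 11 of 40 with a median of −0.065, led by Rubcn (0.28) and Atg14 (−0.32). Between 0 h and 18 h, 3 of the 45 lysosomal genes were called higher in the parental line (against 5.56% of all tested), 3 in #A-59 (4.17%), and 2 in #B-20 (2.93%), which is near the share over all genes. MiT/TFE factors and the folliculin-Rag regulators were positive for 9 of 20 (−0.0327), with 0.17 for Tsc2 and −0.28 for Lamtor5.

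Among the lists of B cell function, the share of positive values lay between 6 of 18 and 9 of 16. MHC class II genes were positive for 9 of 16 (median 0.0752), with 0.51 for Ciita and −0.22 for Lgmn, and 10 were called higher at 18 h in the parental line (against 5.56% of all tested), 9 in #A-59 (4.17%), and 6 in #B-20 (2.93%). Chemokine and positioning receptors were positive for 6 of 18 (−0.15), with 0.42 for Cxcr5. The Bcl-2 family was positive for 12 of 22 (0.0971), with −0.82 for Bmf and 1.02 for Bcl2a1d, the latter a member of a family of near-identical genes. Proximal BCR signalling genes were positive for 15 of 44 (−0.0504), with −0.40 for Fcgr2b and 0.36 for Cd22, and B cell identity factors for 15 of 28 (0.0162), with −0.37 for Zbtb32 beside Irf4.

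The lists of the cell cycle and of stress responses had different shares. G1 cyclins and their kinases were positive for 9 of 23 (−0.0916), with 0.37 for Cdk6 and 0.23 for Ccnd3, DNA replication genes for 29 of 39, with 0.42 for Ung and 0.22 for Chaf1b, mitotic genes for 9 of 33 (−0.0325), with −0.20 for Ccnb2 and −0.27 for Mad2l1, ATF4 genes for 11 of 35 (−0.11), with −0.63 for Sesn2 and −1.57 for Nupr1, and p53 targets for 10 of 25 (−0.0623), with −0.41 for Btg2 beside Sesn2. No member named for the lists of B cell function, the cell cycle or stress responses had an FDR under 0.05 in this fit. With adjustment for GC content, Sesn2 (0.0125), Irf4 (0.0176), Bmf (0.0464) and Bcl2a1d (0.0497) did. With the replicate number as a block, Bcl2a1d (0.0167), Sesn2 (0.025) and Irf4 (0.026) did.

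**Figure D5:**
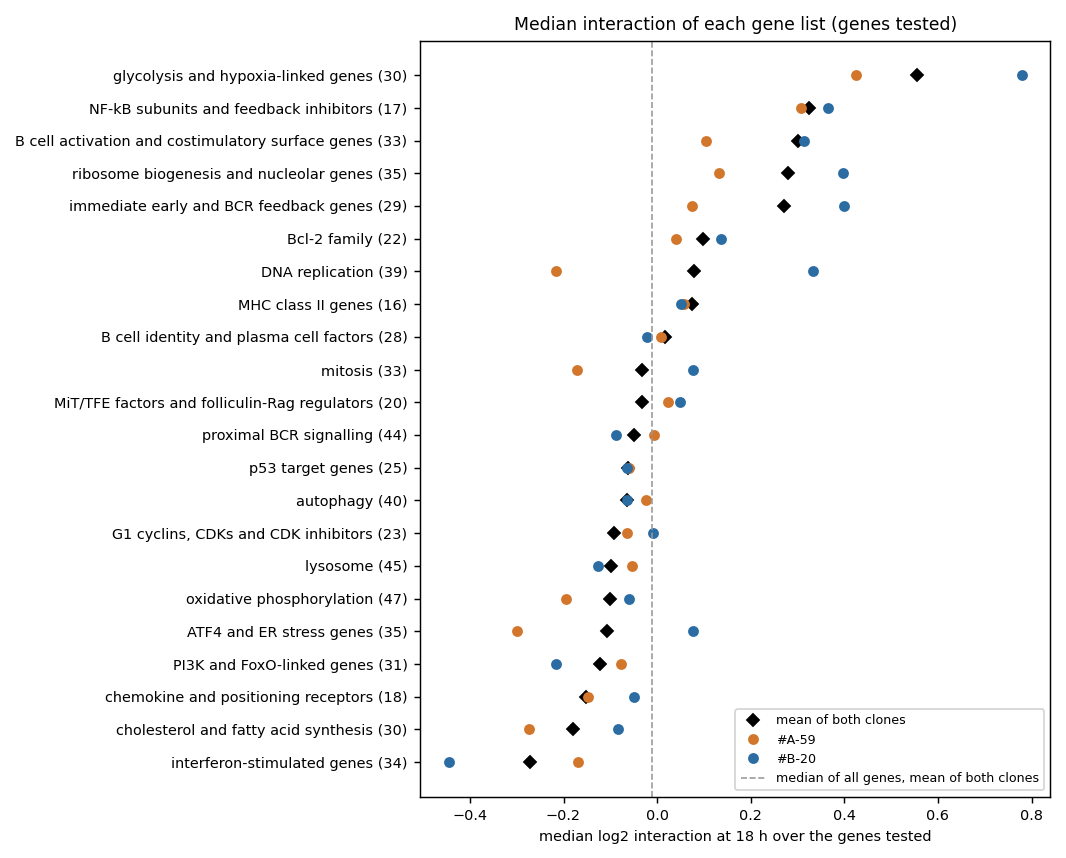
Median log2 interaction at 18 h (x axis) of the mean and of each clone for the 22 gene lists, with the number of genes tested in parentheses. Glycolytic genes lie furthest to the right (median of the mean 0.56) and interferon-stimulated genes furthest to the left (−0.27), and for DNA replication the points of #A-59 and #B-20 lie on opposite sides of 0.

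Genes that the study names for stimulation of its TFEB mutant lines, WEHI-231 or human Ramos, were looked up as well. The 5 that could be tested did not pass the test of the interaction at 18 h. The study, which also stimulated for 6 h, reports lower resting levels of Cxcr4, Ccr7 and Il-7r in its WEHI-231 or Ramos mutants. It also reports that their rise on stimulation was lost. Ciita, the master regulator of MHC class II, was lower in the clones but rose in all genotypes, from 24.95 and 28.3 CPM to 81.7 and 84.6 CPM in parental cells, from 7.59 and 9.63 to 43.9 and 45.0 CPM in #A-59 and from 1.47 and 1.55 to 4.83 and 6.72 CPM in #B-20. Its mean interaction was 0.51 (adjusted p = 0.453, edgeR). H2-Aa, a class II chain, had log2 changes of 1.47, 2.31 and 1.08 (0.23, adjusted p = 0.900, edgeR), with clone values of 0.84 and −0.39. The mean turned to −0.08 without parental 0 h replicate 2. Its reads, not scaled for library totals, went from 1886 and 2441 at 0 h to 2489 and 4740 at 18 h in parental cells. They went from 277 and 273 to 1103 and 943 in #A-59 and from 25 and 33 to 96 and 121 in #B-20. H2-Aa was thus lower in both clones at both times. The chemokine receptor gene Ccr7 rose by 2.48, 1.86 and 2.06 over 18 h (−0.51, adjusted p = 0.748, edgeR). In reads not scaled for library totals, it went from 36 and 37 at 0 h to 145 and 191 at 6 h in parental cells. The values were 21 and 14 and then 15 and 12 in #A-59, and 10 and 10 and then 10 and 16 in #B-20. At 6 h Ccr7 had thus risen in parental cells and little or not in the clones. At 18 h the reads were 82 and 161 (parental), 40 and 53 (#A-59) and 79 and 70 (#B-20). Cxcr4 had log2 changes of −0.97, −0.95 and −0.77 (0.11, adjusted p = 0.965, edgeR). Its unscaled reads at 0 h were 1766 and 1233 (parental), 334 and 166 (#A-59) and 295 and 202 (#B-20). At 18 h they were 331 and 563, 88 and 97, and 318 and 201. The #B-20 libraries of 18 h held 27472928 and 26984977 counts, against 11223588 and 19340288 in parental cells. Relative to these totals, Cxcr4 was lower in both clones at both times. Bcl2l15, which encodes a member of the Bcl-2 family, was 239 and 250 CPM and then 366 and 380 CPM in parental cells and at most 9.04 CPM in all 8 clone libraries, so that it differed in level at both times, and the mean interaction was −0.53 (adjusted p = 0.218, edgeR). Il7r had 0 and Hrk at most 1 read in every library, and neither was tested. The study places the impaired rise of HRK in Ramos cells and that of Bcl2l15 in WEHI-231 cells.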

How the data were processed

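Gene counts of 12 WEHI-231 libraries (0 h and 18 h of parental cells, #A-59 and #B-20) were analysed, with the 6 libraries of 6 h in the same fit. Groups were taken from the labels. The deposited counts, as the authors made them, are whole, non-normalized reads per Ensembl gene from non-stranded mRNA libraries sequenced single-end. The submitters' processing notes name bcl2fastq 2.20.0.422, STAR 2.5, featureCounts 1.5.0-p1 and GRCm38; the counting options are not given in the sources used here. Totals were 11223588 to 29655262 counts per library.

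In R 4.3.3, edgeR 4.0.16 (with limma 3.58.1) kept 15318 genes by filterByExpr, scaled libraries by TMM and fitted 1 mean for each of 9 groups (robust quasi-likelihood, 9 residual degrees of freedom). Calls needed an FDR under 0.01 over all genes and a log2 value beyond 1, the limits of the study's methods. Scripts were tested on simulated data. Members and lists were chosen with earlier results of these data known. Named are all genes called in the mean, the 5 largest of each clone not called in the mean, genes called between the clones, list members called, the 2 members of each list with the lowest p, and the genes the study names, except for items not reported here. Alternatives were DESeq2 1.42.0 without and with betaPrior, its size factors, no filter, a minimum of 10 counts in every library, only the 0 h and 18 h libraries, the replicate number as a block, a GC correction (loess, span 0.5), an FDR of 0.05, and each library left out. Those for the responses, the difference between the clones in single genes and the lists were added after seeing the data. Coordinates, promoters and overlaps are those of RefSeq (GRCm38.p6). Motifs were searched on both strands. The reads were not used here. P-values measure the spread between 2 experiments per group.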

Additional observations from a re-analysis of the deposited data

Results flagged for a closer look

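The following results are those in which the change over 18 h differed between genotypes by a test of the difference itself (edgeR's quasi-likelihood test, Benjamini-Hochberg). With 2 libraries per group, a single library that stands apart within its group cannot be tested for. The counts were 12 genes in the mean, 5 in #A-59, 25 in #B-20, 5 in both clones and 5 between the clones.

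In the mean of both clones the log2 interactions were 1.80 for Shank1, −2.04 for Lztfl1, 1.42 for Rnf157, −1.45 for Gm36043, 1.98 for Gm29695, 1.05 for Carmil3, 1.35 for Nab2, −1.49 for Camkk1, −1.39 for Cd300a, 1.24 for Il21r, 1.12 for Slc19a1 and 1.26 for Pigz.

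In #B-20 they were −1.30 for Il6ra, −1.05 for E330020D12Rik, −1.04 for Bcl7a, −1.06 for Clic5, 1.25 for Fcmr, 1.21 for Nfkbia, −1.04 for Plac8, −1.31 for Slamf6, 1.90 for 1600012P17Rik, −1.45 for Map3k12, 1.37 for Kif26a, −2.08 for Kcng1, −1.89 for Reps2, 1.05 for Sgsm3 and 1.21 for Cnnm1.

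Between the clones (#B-20 minus #A-59) the differences were −1.35 for Apoe, 1.08 for Asns, 2.40 for Rps13-ps2, 1.02 for Aldh18a1 and 1.76 for Ikbke.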

How the results depend on the processing

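The 12 genes of the mean interaction were all called as well by DESeq2 without shrinkage (25 genes), DESeq2 with betaPrior (24), DESeq2's size factors (13), no filter on low counts (39), at least 10 counts in every library (12) and the replicate block (19), and all at an FDR under 0.05 without a limit of size (64, with 48.4% higher against 66.7% among the 12). The GC correction kept 11 (Carmil3 fell to 0.97) and the libraries of 0 h and 18 h alone kept 10 (without Il21r and Pigz). For #A-59, #B-20, both clones and the difference between the clones, the counts of 5, 25, 5 and 5 became 11, 47, 9 and 14 with DESeq2, 12, 46, 9 and 12 with betaPrior, 20, 80, 13 and 51 without a filter, and 15, 109, 10 and 70 at an FDR under 0.05; with betaPrior 54.2% of the calls of the mean were higher. Between the clones, the libraries of 0 h and 18 h alone gave 8. At an FDR under 0.05 the responses counted 6704 genes (parental), 6774 (#A-59) and 5377 (#B-20).

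Leaving out 1 library, the counts ranged from 3 to 12 for the mean, 1 to 5 for #A-59, 5 to 24 for #B-20, 1 to 4 for both clones, 1 to 10 between the clones, 1229 to 1571 for the parental response, 1010 to 1386 for #A-59 and 401 to 1018 for #B-20. A lone library is then assumed to vary like the other groups. The values that turned in sign were those of H2-Aa (−0.079 to 0.49 over the libraries) and Cxcr4 (−0.057 to 0.29).

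The labels do not say whether libraries of the same number share an experiment or batch. The correlation of their deviations from the group means was −0.026 to 0.32 over the 36 pairs of groups in the fit. It was over 0.1 in 14 of these pairs. Over the 15 pairs of 0 h and 18 h groups it was −0.004 to 0.229, and over 0.1 in 5. A part common to same-numbered libraries was not tested and is not in the main fit. The replicate block gave 19 genes in the mean, 9 in #A-59, 38 in #B-20, 7 in both clones and 12 between the clones, and 1614, 1402 and 786 in the responses. With it, 135 genes of the mean and 164 between the clones had an FDR under 0.05, against 64 and 70. Klf3 (0.0148), Bcl2a1d (0.0167), Oasl1 (0.025), Sesn2 (0.025), Irf4 (0.026) and Pik3r1 (0.026) then had an FDR under 0.05, as did 5 NF-kB genes, 3 interferon-stimulated genes and 1 glycolytic gene.

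Of 1538 values of named genes over all alternatives, 1421 kept direction and side of the threshold, 86 lost the call, 27 gained it and 4 turned in sign. No scaling moved the median of all genes by 0.1. With 2 libraries per group, 3 to 7 reads in a group limit genes such as Il12a, and an interaction that was not called is not shown to be absent.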
